A study of Mus musculus with 6 samples.

Results

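The 9 genes described here encode the enzymes of the pentose phosphate pathway and the synthetases that draw on its product, taken by gene symbol from the 13809 genes of the count table: *G6pdx*, *Pgls*, *Pgd*, *Rpia*, *Rpe*, *Tkt*, *Taldo1*, *Prps1* and *Prps2*. All 9 were in the table and passed the filter on low counts. RNA was measured in 6 libraries, 3 from wild-type (WT) and 3 from *Pkm1*-knockout (KO) mouse hearts at embryonic day 18.5 (E18.5), labelled as heart and described by the study as ventricular tissue. The KO embryos were homozygous, in every tissue, for a Cas9-made deletion in the exon that the M1 isoform of pyruvate kinase does not share with M2, which introduces an early stop, in a line made on a mixed C57BL/6J and DBA/2 background from 1 guide RNA. Total RNA was depleted of ribosomal RNA and sequenced as paired reads, and the libraries of each genotype are referred to as a, b and c. The study's methods call the libraries of a genotype biological replicates, without stating whether each came from 1 embryo.

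The pentose phosphate pathway leaves glycolysis at glucose-6-phosphate. Its oxidative branch makes NADPH, used against oxidative stress and in lipid synthesis, and yields ribulose-5-phosphate. Its non-oxidative branch interconverts pentose phosphates and returns carbon to glycolysis as fructose-6-phosphate and glyceraldehyde-3-phosphate, while the PRPP synthetases join ribose-5-phosphate with pyrophosphate from ATP to make PRPP, the sugar donor of nucleotide synthesis. Pyruvate kinase catalyses the last step of glycolysis, downstream of this branch. The heart is known for a low activity of glucose-6-phosphate dehydrogenase relative to its glycolysis. The comparison below addresses whether transcripts of these enzymes differed between WT and KO hearts.

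*Pgd* and *Prps2*, whose higher level in KO is described below, and *Prps1*, the closest relative of *Prps2* among these genes, are shown by the RefSeq promoter sequence (GRCm38.p6) that lies outside annotated exons. Each is printed 5′ to 3′ in the direction of transcription, with capitals marking CCAAT (bound by NFY) or GGGCGG (bound by Sp factors) or their reverse complements, both chosen because the study concerned NFY and Sp factors. The *Pgd* sequence lies at chr4:149166772-149166955 on the minus strand, the *Prps1* sequence at chrX:140456353-140456602 on the plus strand and the *Prps2* sequence at chrX:167382750-167382999 on the minus strand.
Pgd: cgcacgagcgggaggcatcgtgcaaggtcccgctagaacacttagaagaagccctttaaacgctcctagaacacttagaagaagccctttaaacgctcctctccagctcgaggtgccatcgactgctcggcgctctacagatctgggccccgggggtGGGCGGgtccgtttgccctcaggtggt
Prps1: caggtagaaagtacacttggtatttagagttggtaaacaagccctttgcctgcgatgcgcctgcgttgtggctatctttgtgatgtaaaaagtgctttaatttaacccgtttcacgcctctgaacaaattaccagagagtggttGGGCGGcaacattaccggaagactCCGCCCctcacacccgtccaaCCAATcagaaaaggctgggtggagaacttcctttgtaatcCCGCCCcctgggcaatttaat
Prps2: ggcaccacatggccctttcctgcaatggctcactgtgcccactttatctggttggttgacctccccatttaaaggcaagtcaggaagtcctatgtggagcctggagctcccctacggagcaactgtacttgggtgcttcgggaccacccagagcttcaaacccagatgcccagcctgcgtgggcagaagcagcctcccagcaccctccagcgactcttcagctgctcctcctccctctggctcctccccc

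In these letters the *Prps1* promoter held 3 GGGCGG boxes and 1 CCAAT, and the *Prps2* promoter held neither. RefSeq windows from 250 bases before to 50 after a start site were found for 9 of 9 genes, and each motif was counted on both strands over all of them. GGGCGG was present in the windows of 8 of the 9 genes, all but *Prps2*, against 67.6% of the 10320 tested genes with a window and 35.7% of all 32851 windows. CCAAT was present in 4 of the 9, *Pgd*, *Rpe*, *Taldo1* and *Prps1*, against 42.3% of those genes and 37.4% of all windows. In *Pgd* it began at −46 and −9 from the start site, outside the printed letters. The pattern TGACNNNGC, part of the antioxidant response element bound by Nrf2, was present in *G6pdx* and *Pgd*, against 17.1% of those genes and 12.4% of all windows. *Pgd* has 2 windows, and this match lies in the second, which is not printed. The E-box CACGTG was present in 0 of the 9, against 11.6% and 7.15%. A match in these letters is a description of the window and is no evidence of binding.

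Of the 9 genes, 3 were higher in KO hearts, *Pgls*, *Pgd* and *Prps2*, and 0 were lower (edgeR's quasi-likelihood test, Benjamini-Hochberg adjusted p under 0.05 over all 13804 genes tested). In the same test 30.3% of all genes were called, 14.6% as higher and 15.7% as lower. Log2 fold changes, KO minus WT, ran from −0.11 for *Taldo1* to 0.27 for *Prps2*. Their median was 0.05, against 0.00172 over all genes, and 7 of the 9 were above 0, against 50.4% of all genes. WT and KO libraries did not overlap for 4 of the 9 genes (44.4%), against 42.4% of all genes, a share close to that of all genes. Without WT c, the library that stood apart from the others (values below), 3 of the 9 were higher and 0 lower. In that setting 2013 of all genes were higher and 2306 lower. With DESeq2's Wald test 2 of the 9 were higher, *Pgd* and *Prps2*, and 9.87% of all genes were. *Pkm*, the targeted gene, fell from 1318 ± 41.1 to 542 ± 10.1 CPM (counts per 1000000 of the scaled library size; mean ± SD, n = 3), with no overlap.

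**Figure D1:**
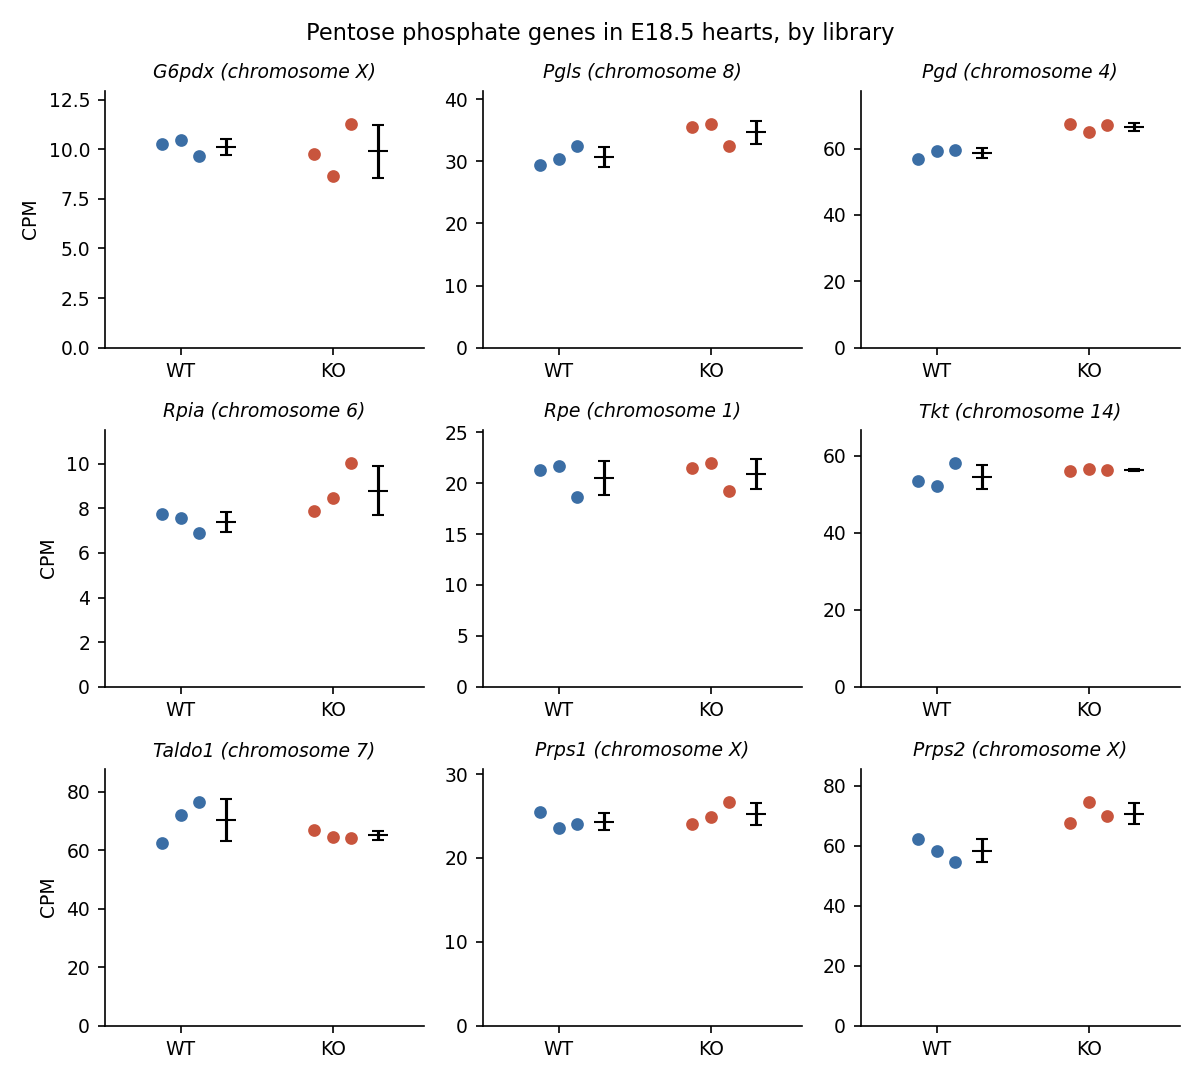
CPM of each of the 9 genes (y axes, each from 0) in the 3 WT (blue) and 3 KO (red) libraries, with the mean and SD of each group as black bars. The groups are apart for *Pgd*, *Prps2* and *Rpia*, touch for *Pgls* and overlap for the other 5.

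Library totals were 15597756 to 19875546 counts in WT and 15567624 to 18577404 in KO. WT c differed from the other WT libraries more than any KO pair differed, with a chi-square per degree of freedom of 3.76 against WT a and 3.24 against WT b, where the other 4 pairs within a genotype had 1.56 to 1.88. *Kdm5d*, *Uty*, *Ddx3y* and *Eif2s3y*, encoded on the Y chromosome, averaged 39.1 to 93.5 CPM in WT and were counted 0 times in KO a, b and c. *Xist*, the RNA that coats the inactive X chromosome, averaged 5.26 ± 0.500 CPM in WT against 2285 ± 47.6 CPM in KO. Sex and genotype therefore cannot be told apart in these libraries, which bears most directly on the 3 X-linked genes *G6pdx*, *Prps1* and *Prps2*. Of the X-linked genes tested, 48 of 477, or 10.1%, were higher in KO. Summed cardiomyocyte markers spanned 139413 to 142948 CPM in WT and 132425 to 133549 in KO, with 2 of 10 higher and 7 lower. Atrial markers summed to 595 to 601 CPM in WT and 1006 to 1030 in KO, with 3 of the 6 tested higher and 0 lower. Fibroblast markers summed to 3946 to 3992 CPM in WT and 3677 to 3746 in KO, with 0 of 8 higher and 4 lower, and endothelial markers to 1289 to 1295 and 1276 to 1295, with 2 of 8 higher and 3 lower. Erythroid markers, 3 of 8 in the table, spanned 33.5 to 35.5 CPM in WT and 35.8 to 43.0 in KO (1 higher, 1 lower), and macrophage and leukocyte markers, 7 of 8 in the table, 36.2 to 40.5 and 36.3 to 42.9 (0 called in either direction). None of the markers in the table was at 0 in all libraries. In bulk tissue fewer cells of a type and less RNA per cell cannot be told apart, and the part of these shifts in any result below was not tested.

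In the oxidative branch the entry enzyme did not pass the test, while both later enzymes were called higher in KO, *Pgls* in 10 of 16 alternative settings. The 95% interval of the entry enzyme also holds the values of both later enzymes, so no difference between the steps is shown. *G6pdx* (X:74409483-74429194, minus strand, GRCm38) encodes glucose-6-phosphate dehydrogenase, the rate-limiting, NADPH-making first step. It was measured at 10.3, 10.5 and 9.66 CPM in WT a, b and c and at 9.75, 8.65 and 11.3 CPM in KO a, b and c. The KO libraries spread to both sides of the WT libraries, KO b being the lowest and KO c the highest of the 6. Its log2 fold change was −0.03 (SE 0.108, 95% interval −0.25 to 0.19, edgeR adjusted p = 0.862), an interval that holds changes between a 16.1% fall and a 14.3% rise. *G6pdx* rested on 137 to 210 counts per library. It lies within the span of *Ikbkg*, transcribed from the opposite strand with 418 exonic bases in common, and *Ikbkg* had a log2 fold change of −0.02 (edgeR adjusted p = 0.781).

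*Pgls* (8:71592176-71601092, plus strand) encodes the lactonase that hydrolyses the product of the first step. It stood at 29.4, 30.3 and 32.52 CPM in WT and at 35.4, 36.0 and 32.52 CPM in KO. WT c and KO c were all but equal, so the groups met without overlapping. The mean was 30.8 ± 1.596 CPM in WT and 34.7 ± 1.87 CPM in KO (SD, n = 3), a log2 fold change of 0.17 (SE 0.0638, 95% interval 0.04 to 0.30, edgeR adjusted p = 0.0404). The call was lost with DESeq2 (adjusted p = 0.112) and in edgeR without WT a (adjusted p = 0.141), WT b (0.123), KO a (0.135) or KO b (0.147). Exons of *Pgls* share 776 bases with exons of *Fam129c* on the same strand, and 18.9% of the 50-base words of its transcripts also occur in *Fam129c* transcripts. *Fam129c* was itself higher in KO, averaging 1.28 ± 0.389 CPM in WT against 3.62 ± 0.294 CPM in KO (SD, n = 3; log2 fold change 1.501, SE 0.228, edgeR adjusted p = 1.25e-05). How reads in the common exons were assigned is not given in the sources used here, and the part of *Fam129c* in the *Pgls* counts was not tested.

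*Pgd* (4:149149991-149166771, minus strand) encodes 6-phosphogluconate dehydrogenase, which makes NADPH for the second time and releases ribulose-5-phosphate. Its levels were 56.9, 59.3 and 59.7 CPM in WT and 67.4, 65.0 and 67.0 CPM in KO. Every KO library lay above every WT library, and the gap between the groups exceeded the range within either. From 58.7 ± 1.52 CPM in WT it rose to 66.5 ± 1.26 CPM in KO (SD, n = 3), a log2 fold change of 0.18 (SE 0.0476, 95% interval 0.08 to 0.28, edgeR adjusted p = 0.00480). The call held in 16 of 16 alternative settings, with log2 fold changes of 0.16 to 0.20. Only 0.636% of its 50-base words occur in other genes. The summed oxidative branch reached 96.6, 100.1 and 101.9 CPM in WT and 112.6, 109.7 and 110.8 CPM in KO, most of it from *Pgd* in each library. *Pgd* took 85.3 ± 0.707% of the *Pgd* and *G6pdx* counts in WT and 87.1 ± 1.36% in KO (SD, n = 3; exact two-sided permutation p = 0.2, where 0.1 is the smallest that 3 against 3 allows).

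**Figure D2:**
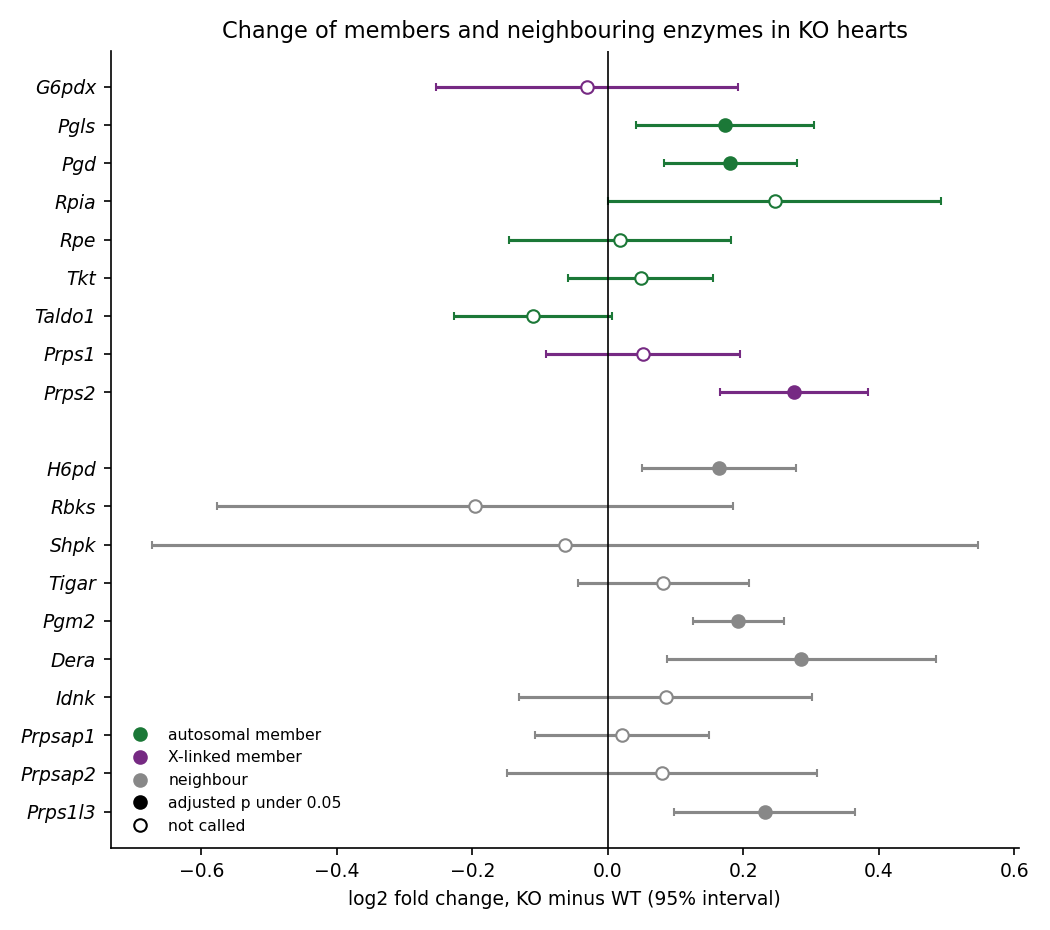
Log2 fold change, KO minus WT, with its 95% interval (x axis) for the 9 genes, autosomal in green and X-linked in purple, and for 10 neighbouring enzymes in grey. Filled points have an edgeR adjusted p under 0.05, and no filled point lies below 0. The row named *Pgm1*, which was lower in KO, is not plotted.

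In the non-oxidative branch 0 of 4 genes passed the test at an adjusted p under 0.05, where 30.3% of all genes did. A count over 4 genes is too small to set the branch apart from that share. Their log2 fold changes, none of them called, differed in direction. *Rpia* (6:70765720-70792232, minus strand) encodes ribose-5-phosphate isomerase, which makes the ribose phosphate used for nucleotides. It was at 7.76, 7.55 and 6.90 CPM in WT and at 7.89, 8.46 and 10.04 CPM in KO. The KO libraries were all above the WT libraries, by the smallest margin between WT a and KO a, and KO c stood highest. The log2 fold change was 0.25 (SE 0.119, 95% interval 0.00 to 0.49), with an unadjusted edgeR quasi-likelihood p of 0.0492 and an adjusted p of 0.121. It passed in 0 of 16 alternative settings. *Rpia* was the lowest of the 9 genes per length, and its interval is also the widest.

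*Rpe* (1:66700831-66719805, plus strand), the epimerase that supplies xylulose-5-phosphate, had 21.3, 21.7 and 18.6 CPM in WT and 21.5, 21.98 and 19.2 CPM in KO. Both groups covered almost the same range, with library c the lowest in each. Its log2 fold change was 0.02 (SE 0.0796, 95% interval −0.15 to 0.18, edgeR adjusted p = 0.890). The end of *Rpe* overlaps 558 exonic bases of *Kansl1l* on the opposite strand, which had a log2 fold change of 0.09 (edgeR adjusted p = 0.277).

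*Tkt* (14:30548359-30574720, plus strand) encodes transketolase, which moves fragments between sugar phosphates with thiamine diphosphate as cofactor. Its levels were 53.5, 52.2 and 58.1 CPM in WT and 56.1, 56.6 and 56.4 CPM in KO. The 3 KO libraries agreed closely, with an SD of 0.238 CPM, and all fell inside the WT range. The log2 fold change was 0.05 (SE 0.0520, 95% interval −0.06 to 0.16, edgeR adjusted p = 0.516), so the interval covers changes from a 3.95% fall to an 11.4% rise. None of its 50-base words was found in another gene.

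*Taldo1* (7:141392199-141402968, plus strand) encodes transaldolase, the other carbon-shuffling enzyme of the branch. It was at 62.6, 72.2 and 76.5 CPM in WT and at 67.0, 64.4 and 64.2 CPM in KO. WT a was the lowest of the 6 libraries while WT b and WT c were the highest, so the KO range fell inside the WT range. Means were 70.5 ± 7.13 CPM in WT and 65.2 ± 1.55 CPM in KO (SD, n = 3), a log2 fold change of −0.11 (SE 0.0566, 95% interval −0.23 to 0.01, edgeR adjusted p = 0.146). Without WT a the log2 fold change was −0.19 with an edgeR adjusted p of 0.00802, and *Taldo1* was then the 1 gene of the 9 called lower. The summed non-oxidative branch was 145, 154 and 160 CPM in WT and 152, 151 and 150 CPM in KO.

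Of the PRPP synthetases, *Prps2* was higher in KO and *Prps1* did not pass the test. Both genes are X-linked. *Prps2* (X:167346322-167382749, minus strand) stood at 62.1, 58.2 and 54.5 CPM in WT and at 67.6, 74.5 and 69.8 CPM in KO. All KO libraries were above all WT libraries, with WT a and KO a nearest to each other. The mean went from 58.2 ± 3.81 to 70.6 ± 3.53 CPM (SD, n = 3), 1.21-fold (95% interval 1.12 to 1.30), with a log2 fold change of 0.27 (SE 0.0530, edgeR adjusted p = 2.60e-04). It was called in 15 of 15 alternative settings that kept X-linked genes, with log2 fold changes of 0.23 to 0.32. Among 476 X-linked genes other than *Xist* the median log2 fold change was −0.03, and 54 of them (11.3%) had a value at least as high as that of *Prps2*, against 12.9% of all genes. The 4 X-linked genes known to escape inactivation that were examined, *Kdm6a*, *Kdm5c*, *Eif2s3x* and *Ddx3x*, were all higher in KO, with a median log2 fold change of 0.63. The parts of sex and of genotype in the *Prps2* difference cannot be told apart.

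*Prps1* (X:140456613-140476140, plus strand) had 25.5, 23.5 and 24.0 CPM in WT and 24.1, 24.9 and 26.7 CPM in KO. The groups overlapped, with only KO c above the WT range. Its log2 fold change was 0.05 (SE 0.0696, 95% interval −0.09 to 0.19, edgeR adjusted p = 0.616). *Prps1* shares 9.93% of its 50-base words with *Prps1l3*, a near copy, so counts could have been divided between them. *Prps1l3* was higher in KO, averaging 26.6 ± 1.31 CPM in WT against 31.2 ± 1.1504 CPM in KO (SD, n = 3; log2 fold change 0.23, SE 0.0650, edgeR adjusted p = 0.00811). Summed over both, the level was 53.1, 50.5 and 49.1 CPM in WT and 54.3, 55.9 and 59.1 CPM in KO, and *Prps1l3* took 51.1% to 53.4% of it in WT and 54.9% to 55.6% in KO.

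*Prps2* shares 0.105% of its words with other genes. Of the *Prps1* and *Prps2* counts, 70.9%, 71.2% and 69.4% were on *Prps2* in WT and 73.7%, 74.97% and 72.3% in KO. Each KO library had a larger *Prps2* share than each WT library, and the exact two-sided permutation p of 0.1 is the smallest that 3 against 3 libraries can give. Counts on *Prps1l3* were left out of this share, although some may stem from *Prps1*. Including them would lower the *Prps2* share in every library, and the difference between genotypes in such a share was not tested. The 2 synthetases summed to 87.6, 81.7 and 78.5 CPM in WT and 91.7, 99.4 and 96.4 CPM in KO.

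Per kilobase of annotated exon (CPM per kb), *Taldo1* had the highest level of the 9 genes in WT, at 32.5 ± 3.28 (SD, n = 3). *Prps2* followed with 15.0 ± 0.984, *Prps1* with 12.2 ± 0.509, *Pgd* with 9.10 ± 0.235, *Pgls* with 8.16 ± 0.423, *Tkt* with 7.42 ± 0.426 and *Rpe* with 6.60 ± 0.543 CPM per kb. *G6pdx*, at 3.29 ± 0.135, and *Rpia*, at 1.38 ± 0.0840 CPM per kb, were the lowest. Neighbours in this order had WT ranges that did not overlap, except *Pgls* (7.80 to 8.63) and *Tkt* (7.10 to 7.91). In KO the level was 30.0 CPM per kb for *Taldo1*, 18.2 for *Prps2* and 10.3 for *Pgd*, with *G6pdx* at 3.21 and *Rpia* at 1.64 again the lowest. Pyruvate kinase was far above all of them, with *Pkm* at 264 CPM per kb in WT and 108 in KO. The middle of the order depends on the length used: per kilobase of the longest transcript *Tkt* was second at 16.9 CPM per kb, followed by *Pgd* at 16.1, *Prps2* at 15.7, *Prps1* at 12.4 and *Pgls* at 11.4, while *Taldo1* stayed first at 51.7 and *Rpe* (7.54), *G6pdx* (3.82) and *Rpia* (2.03) kept the last places.

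**Figure D3:**
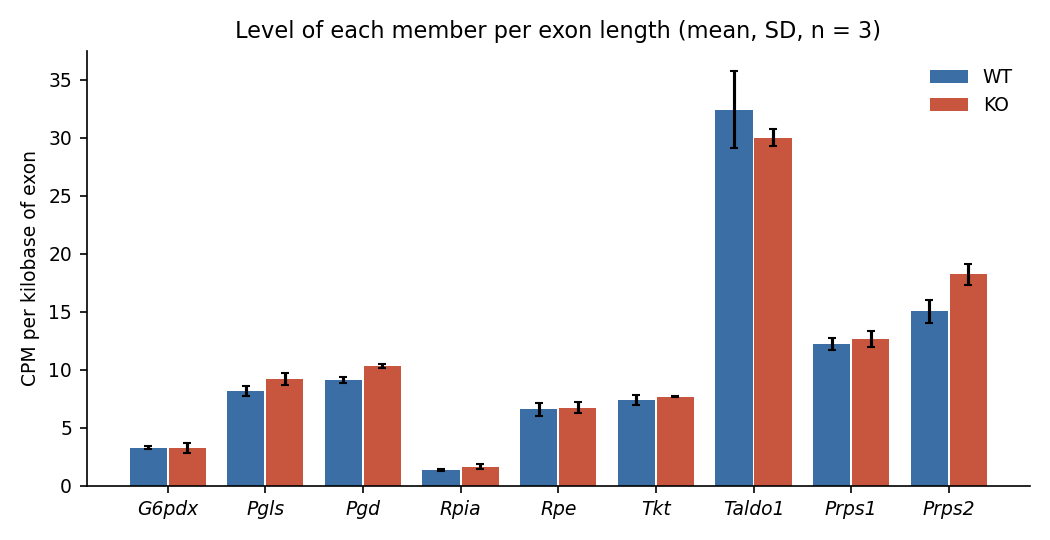
Level of each gene in CPM per kilobase of annotated exon (y axis) in WT (blue) and KO (red), as mean and SD of 3 libraries. *Taldo1* is highest at 32.5 and *Rpia* lowest at 1.38 CPM per kb in WT, and the bars of *Prps2* differ most in relative height among the 3 genes called.

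The genes whose log2 CPM followed that of *G6pdx* most closely over the 6 libraries, among 9494 genes of at least 10 CPM, were *2610507B11Rik* (Pearson r = 0.986), *Vps37c* (0.973) and *Eef2kmt* (0.972). These are descriptions over 6 libraries that share depth and scaling, and their own log2 fold changes were −0.01, −0.01 and −0.05.

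Enzymes next to the pathway were higher in KO in 4 of the 10 tested (14.6% of all genes) and lower in 0 (15.7%). Their median log2 fold change was 0.08. *H6pd*, which carries out the first oxidative steps inside the endoplasmic reticulum, rose from 43.4 ± 1.62 to 48.7 ± 2.06 CPM (SD, n = 3; log2 fold change 0.16, SE 0.0551, edgeR adjusted p = 0.0248). *Dera*, which cleaves deoxyribose phosphate, rose from 11.97 ± 1.45 to 14.5 ± 0.413 CPM (log2 fold change 0.29, edgeR adjusted p = 0.0254). The other 2 were *Prps1l3* and *Pgm2*, a phosphopentomutase in present naming, averaging 241 ± 7.98 CPM in WT against 275 ± 4.04 CPM in KO (log2 fold change 0.19, edgeR adjusted p = 5.53e-05). RefSeq gives *Pgm1* as an older symbol of *Pgm2* and the reverse, and the annotation behind the counts is not named, so which phosphoglucomutase this row counts is not settled. The row named *Pgm1* was lower in KO, at 22.8 ± 0.267 and 18.4 ± 0.806 CPM (log2 fold change −0.31, edgeR adjusted p = 0.00211). It was not among the 10, so the counts of 4 higher and 0 lower depend on this naming. *Tigar*, whose product lowers fructose bisphosphate and so favours the pathway, had a log2 fold change of 0.08 (edgeR adjusted p = 0.335). The PRPP synthetase-associated proteins *Prpsap1* and *Prpsap2* had 0.02 (adjusted p = 0.832) and 0.08 (0.630). *Tktl1*, *Tktl2* and *Prps1l1* had no row in the count table used here.

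The hexose phosphate branch point is where glucose-6-phosphate is made and used. There 4 of 6 genes were higher in KO (14.6% of all genes) and 1 was lower (15.7%). Their median log2 fold change was 0.22. *Hk2*, a hexokinase, rose from 243 ± 3.97 to 310 ± 4.86 CPM (SD, n = 3; log2 fold change 0.35, SE 0.0309, edgeR adjusted p = 1.24e-09). *Pfkl* and *Pfkp*, phosphofructokinase isoforms, rose by log2 fold changes of 0.34 and 0.27 (edgeR adjusted p = 1.95e-09 and 5.13e-07), and *Gpi1*, the isomerase between glucose and fructose phosphates, rose from 748 ± 38.4 to 845 ± 24.3 CPM (0.18, adjusted p = 7.75e-05). *Pfkm*, the muscle isoform of phosphofructokinase, fell from 346 ± 0.850 to 326 ± 6.19 CPM (−0.09, adjusted p = 0.0256). *G6pdx*, which takes glucose-6-phosphate into the pentose phosphate pathway, had −0.03, and the difference between it and these genes was not tested.

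Genes listed for other sources of NADPH, with folate and NAD kinase genes linked to them, were called in both directions. Of the 14 genes, 3 were higher in KO (14.6% of all genes) and 4 lower (15.7%), with a median log2 fold change of 0.03. The higher genes encode mitochondrial folate enzymes. They were *Aldh1l2*, which makes NADPH (0.26, edgeR adjusted p = 2.59e-04), the dehydrogenase *Mthfd2* (0.24, adjusted p = 0.00975) and *Mthfd1l*, a synthetase that makes no NADPH itself (0.44, adjusted p = 1.80e-04). *Aldh1l1*, the cytosolic relative of *Aldh1l2*, fell from 6.72 ± 0.446 to 4.88 ± 0.369 CPM (SD, n = 3; log2 fold change −0.47, edgeR adjusted p = 0.00934). *Idh2*, the mitochondrial NADP-linked isocitrate dehydrogenase, fell from 1485 ± 54.9 to 1298 ± 15.8 CPM (log2 fold change −0.19, adjusted p = 1.42e-06). Its cytosolic counterpart *Idh1* (−0.15) and the mitochondrial transhydrogenase *Nnt* (−0.18) were also lower.

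Genes of nucleotide synthesis from PRPP were higher in KO in 5 of 17 (14.6% of all genes) and lower in 1 (15.7%). Their median log2 fold change was 0.07. *Aprt*, the salvage enzyme that joins adenine to PRPP, rose from 23.1 ± 0.494 to 28.0 ± 0.298 CPM (SD, n = 3; log2 fold change 0.28, edgeR adjusted p = 0.00193). *Cad*, which starts pyrimidine synthesis, had 0.25 (adjusted p = 5.58e-04), and the purine enzymes *Atic*, *Gmps* and *Pfas* had 0.24, 0.19 and 0.15 (adjusted p = 0.00146, 0.00108 and 0.0446). *Adss*, adenylosuccinate synthase, fell from 33.2 ± 0.970 to 27.8 ± 1.23 CPM (−0.26, adjusted p = 0.00225). *Hprt*, an X-linked PRPP user of purine salvage, had a log2 fold change of 0.00 (95% interval −0.09 to 0.10, edgeR adjusted p = 0.977).

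Target genes of the oxidative stress factor Nrf2 outside the pathway were higher in KO in 1 of 12 (14.6% of all genes) and lower in 4 (15.7%). Their median log2 fold change was −0.12. *Slc7a11*, the cystine transporter, fell from 2.30 ± 0.422 to 0.408 ± 0.0848 CPM (SD, n = 3; log2 fold change −2.45, SE 0.317, edgeR adjusted p = 1.14e-06), on 5 to 9 counts per KO library. *Osgin1* rose from 0.255 ± 0.0653 to 0.989 ± 0.366 CPM (log2 fold change 1.98, edgeR adjusted p = 0.00141), on 4 to 5 counts per WT library. *Abcc1* (−0.41), *Gstm1* (−0.32) and *Txnrd1* (−0.14) were lower, with edgeR adjusted p-values of 5.11e-04, 5.08e-04 and 0.0152, and *Nqo1*, a commonly used marker of Nrf2 activity, had −0.27 (adjusted p = 0.0918). *Pgd* and *G6pdx*, the 2 of the 9 genes whose windows held TGACNNNGC, had log2 fold changes of 0.18 and −0.03.

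**Figure D4:**
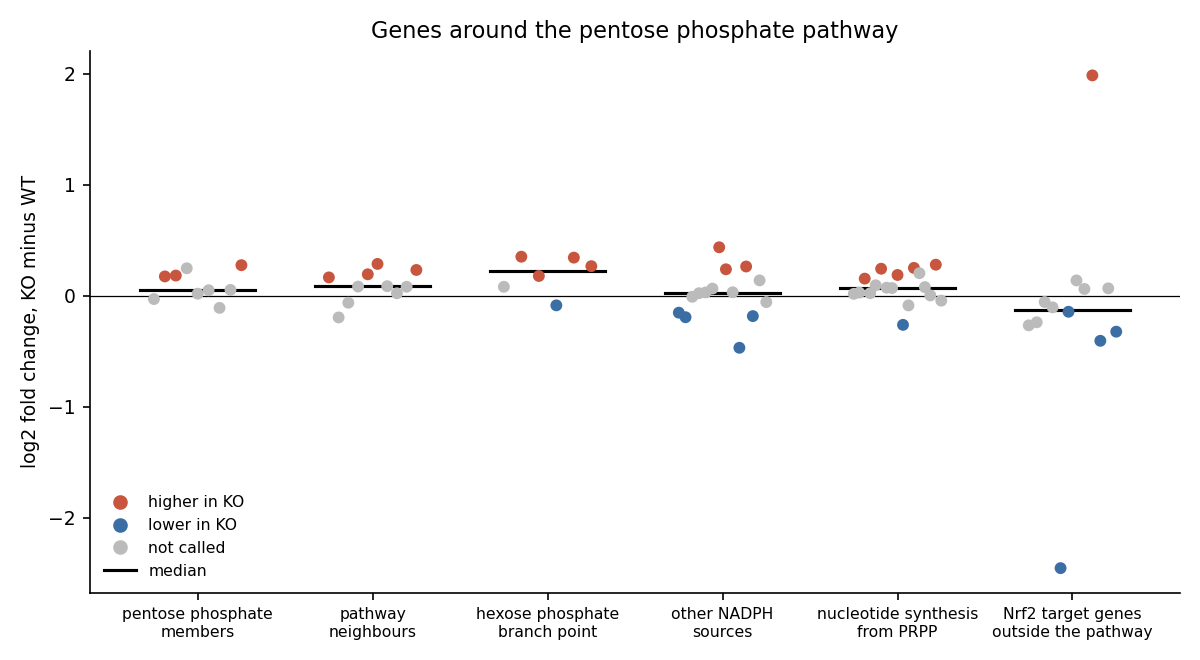
Log2 fold change, KO minus WT (y axis), of each gene in the pentose phosphate set and in 5 lists around it (x axis), red where higher, blue where lower and grey where not called by edgeR, with black bars at the medians. Medians run from −0.12 for Nrf2 targets to 0.22 at the hexose phosphate branch point, with 0.05 for the pentose phosphate genes.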

How the data were processed

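The authors depleted ribosomal RNA (KAPA RiboErase and RNA HyperPrep) and sequenced paired 150-base reads. Per the labels and the study's methods, reads were trimmed with cutadapt 1.18, aligned with HISAT2 (genome build mm10) and assembled with StringTie. The program and annotation that gave counts are not given in the sources used here. In the table the authors deposited, each gene symbol has raw counts in 6 libraries, beside their own fold changes and p-values, which were not used. The columns carry genotype but no replicate number.

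The count analysis used edgeR 4.0.16 under R 4.3.3 (filterByExpr, which left out 5 of 13809 genes, TMM scaling, quasi-likelihood test on genotype, two-sided, Benjamini-Hochberg over 13804 genes). Standard errors and 95% intervals came from the same fit, and CPM from TMM-scaled library sizes. Counting error and the spread between libraries are both in these intervals. The script was tested on simulated data. There it called 53 of 100 genes changed 1.2-fold and 75 of 100 changed 1.5-fold, 0 of them in the wrong direction. Among the unchanged genes there were 7 calls. A gene that did not pass may therefore still differ by such amounts, unless its own 95% interval excludes them. Among the pentose phosphate genes that did not pass, only the interval of *Rpia* held a 1.2-fold change, reaching 1.41-fold. Intervals of the others went no lower than 0.839-fold (*G6pdx*) and no higher than 1.14-fold (*Prps1*). Alternatives used DESeq2 1.42.0, limma 3.58.1 (voom) and other settings. Positions and exon lengths were from GENCODE M21 (GRCm38, the same assembly as mm10), which held 13299 of the symbols, with 492 more found in RefSeq and 18 in neither. Words of 50 bases were compared between transcripts. For the genes without a value above, the words shared with other genes were 16.9% for *G6pdx*, 15.4% for *Rpe*, 6.67% for *Taldo1* and 3.74% for *Rpia*. The part of such words in the counts was not tested.

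The 9 genes and all lists were chosen with earlier results of these data known. The genes named are these 9, *Pkm*, the sex-linked genes, up to 4 called genes per list with the largest change, *H6pd*, *Tigar*, *Prpsap1*, *Prpsap2*, *Hprt*, *Nqo1*, *Gpi1* and the 3 genes most like *G6pdx*. *Fam129c*, *Ikbkg*, *Kansl1l*, *Pgm1*, *Pfkm*, *Idh1*, *Idh2*, *Nnt*, *Gmps*, *Pfas* and *Txnrd1* were added after their values were seen. Plots used matplotlib 3.10.9 (Python 3.11.15).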

Additional observations from a re-analysis of the deposited data

How the results depend on the processing

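No paired analysis was possible because a count column names its genotype and not its replicate. Under 16 alternatives (DESeq2, RLE factors, TMM with *Rn45s* left out, edgeR's exact and likelihood ratio tests, voom, no filter, at least 10 counts in every library, no X or Y genes, WT a and WT b summed as 1 library, and each library left out), the number of the 9 genes higher in KO stayed at 2 or 3. In the setting without X or Y genes only the 6 autosomal genes were tested, and 2 of them were higher. The number lower was 0 to 1 with a library left out, the 1 being *Taldo1* without WT a. *Pgls* also lost its call with WT a and WT b summed (adjusted p = 0.0866). The log2 fold change changed sign for *G6pdx* without KO b and for *Rpe* without WT c, KO a (−0.00533) or KO b (−0.01691). With 1 library left out it ran from −0.1358 to 0.05044 for *G6pdx* and from −0.04532 to 0.07659 for *Rpe*, and neither gene was called. The lists around the pathway had 13 to 18 genes higher (17 as reported) and 8 to 10 lower (10 as reported). Over all genes 1362 to 2199 were higher and 1639 to 2306 lower. The causes were not tested. *G6pdx* and *Rpia*, which had the fewest counts of the 9 genes, had the largest standard errors, and the part of depth in these was not tested.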
